A study of Mus musculus with 2 samples.

Results

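The genes described here are the motile cilium axoneme genes: 79 of the 32285 genes in the count table whose symbols belong to the axonemal dynein, dynein assembly, radial spoke, tektin, Drc, Cfap or Spag families, or are Foxj1, Dynlrb2, Pifo, Ccdc153, Tmem212 or Riiad1. They were chosen by symbol alone. They comprise 31 Cfap genes, 12 dynein heavy chains, 9 Spag genes, 8 radial spoke genes, 5 dynein assembly factors, 5 tektins, 3 Drc genes and the 6 genes named singly. Levels are in CPM, the depth-scaled count of unique molecular identifiers (UMIs) summed over the cells of a class in a library, for choroid plexus-like cells, radial glia-like stem cells (RGL-like) and all other classes. The 3′ tags count 1 end per transcript, so no scaling by gene length was applied.

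Dentate gyrus cells of mice at postnatal day 30 were dissociated and sequenced as single cells in droplets. GEO lists a Phf2 conditional knockout (Nestin-Cre Tg, Phf2flox/flox, 4 mice) and a control (Nestin-Cre Tg, Phf2+/+, 4 mice) as the samples. Both carried the Nestin-Cre transgene of the B6.Cg-Tg(Nes-cre)1Kln/J strain, which is driven by the nestin promoter and acts in neural progenitors and the cells derived from them. The table holds 2 libraries that no label ties to a genotype, so no genotype comparison was made and the libraries are called library 1 and library 2. Phf2, the targeted gene, was at 16.8 and 13.3 CPM in RGL-like cells of libraries 1 and 2, which checks nothing, since the libraries carry no genotype and a 3′ tag need not lie in the deleted part.

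A motile cilium moves by axonemal dyneins that slide the microtubule doublets of its core, the axoneme. Radial spokes and the nexin-dynein regulatory complex regulate that sliding, tektins lie inside the doublets, and cytoplasmic assembly factors put the dynein arms together. Foxj1 is the transcription factor that switches on the genes of motile cilia, and factors of the RFX family bind the X-box in promoters of ciliary genes. The epithelium of the choroid plexus and the ependyma of the ventricles carry many cilia per cell, whereas a neural stem cell of the dentate gyrus carries a single primary cilium. Spag5 and Spag9 came in through their symbols: they encode a protein of the mitotic spindle and a scaffold of kinase signalling.

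Promoter sequence was looked up after many members were seen to be high in choroid plexus-like cells. All members with a promoter entry were counted, whether high in those cells or not. RefSeq promoter windows (GRCm38.p6) matched 64 of the 79 members. The letters GTTGCC, an arm of the X-box, occurred on either strand in the 250 bases before the start of 18 of those 64 genes, 28.1%, against 11.8% of all genes with a window. The 7 letters GTTGCCA, which contain that arm, occurred in 11 of 64 genes, 17.2%, against 4.19% of all genes. Facing arms, GTTNCC and GGNAAC with 2 bases between them, occurred in 2 of 64 genes, 3.12%, against 0.444% of all genes. A shorter pair, GTTNCC and GNAAC with 2 bases between them, was added after the Dynlrb2 sequence had been seen and occurred in 3 of 64 genes, 4.69%, against 0.670%. The forkhead core TGTTTAC occurred in 4 of 64 genes, 6.25%, against 3.54% of all genes. A match is a run of letters and not a bound site.

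The 250 bases before the start are shown for 4 members that were high in choroid plexus-like cells and for Dnah5, which was high in RGL-like cells, 5′ to 3′ on the gene's strand. Foxj1, Rsph1 and Riiad1 had no entry in the table. The 5 genes were picked after the values were known. Capitals mark matches to the X-box patterns on either strand. Dynlrb2 lies at chr8:116504765-116505014 on the plus strand, Tekt1 at chr11:72361883-72362132 on the minus strand, Cfap298 at chr16:90934850-90935099 on the minus strand, Pifo at chr3:106014647-106014896 on the minus strand and Dnah5 at chr15:28203516-28203765 on the plus strand.
Dynlrb2: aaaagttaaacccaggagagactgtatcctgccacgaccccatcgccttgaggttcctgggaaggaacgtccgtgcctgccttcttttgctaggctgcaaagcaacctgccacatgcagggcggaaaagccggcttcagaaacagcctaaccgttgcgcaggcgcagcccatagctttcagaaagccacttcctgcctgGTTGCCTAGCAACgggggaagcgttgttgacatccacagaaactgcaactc
Tekt1: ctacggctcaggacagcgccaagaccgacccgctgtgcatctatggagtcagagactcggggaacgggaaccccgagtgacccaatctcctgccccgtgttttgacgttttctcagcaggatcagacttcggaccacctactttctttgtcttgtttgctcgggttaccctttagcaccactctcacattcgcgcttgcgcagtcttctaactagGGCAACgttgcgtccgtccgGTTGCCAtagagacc
Cfap298: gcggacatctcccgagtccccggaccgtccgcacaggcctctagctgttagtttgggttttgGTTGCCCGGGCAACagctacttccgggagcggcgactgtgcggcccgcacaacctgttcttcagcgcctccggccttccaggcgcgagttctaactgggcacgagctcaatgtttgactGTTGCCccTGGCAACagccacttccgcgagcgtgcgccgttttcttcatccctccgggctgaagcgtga
Pifo: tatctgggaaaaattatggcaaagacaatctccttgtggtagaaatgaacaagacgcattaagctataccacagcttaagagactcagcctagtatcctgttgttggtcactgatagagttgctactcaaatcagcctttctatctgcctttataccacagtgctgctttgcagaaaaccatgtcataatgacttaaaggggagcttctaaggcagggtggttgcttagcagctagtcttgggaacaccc
Dnah5: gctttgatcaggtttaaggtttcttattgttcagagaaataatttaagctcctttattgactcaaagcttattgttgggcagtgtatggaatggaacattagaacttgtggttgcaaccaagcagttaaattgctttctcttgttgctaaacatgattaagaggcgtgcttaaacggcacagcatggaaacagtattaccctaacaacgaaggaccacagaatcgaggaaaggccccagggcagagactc
Dynlrb2 held the shorter pair of facing arms and Tekt1 held 2 separate arms on opposite strands, in the reverse of the facing order. Cfap298 held the longer pair once and 2 more facing arms nearer to the start. In the windows shown for Pifo and Dnah5 none of the X-box patterns occurred. A further window of Pifo, at another start of the gene, did hold the facing pair.

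After filtering, 8029 cells of library 1 and 8129 cells of library 2 remained, with a median of 8092 and 7232 UMIs per cell, and 22 barcode sequences occurred in both libraries. Choroid plexus-like cells numbered 368, RGL-like cells 1117 and cells of the other named classes 13445. The remaining 1228 cells lay in 4 unnamed clusters and entered no class. The choroid plexus-like class held 29 cells with 265458 UMIs in library 1 and 339 cells with 6854167 UMIs in library 2, so its values in library 1 have far wider counting intervals. It was made of cluster 3 (28 cells in library 1 and 226 in library 2) and cluster 29 (1 and 113 cells). The thyroxine carrier gene Ttr, a defining marker of choroid plexus, took 17.3% and 31.3% of its UMIs, and Otx2, a transcription factor of that epithelium, was at 200 and 340 CPM there, against 0.0279 and 0.559 CPM in all other cells. The RGL-like class was 1 cluster of 458 and 659 cells, led by Fabp7 and Hopx. Tfap2c, a marker of these stem cells, was at 46.6 and 62.1 CPM in it, against 2.73 and 3.40 CPM in all other cells. The 8 ependymal markers summed to 2434 and 1225 CPM in choroid plexus-like cells. Their sum was 93.6 and 118 CPM in RGL-like cells, against 38.6 and 45.0 CPM in all other cells. Most of the sum in choroid plexus-like cells was Calml4, at 1759 and 644 CPM. Mia was at 293.8 and 456.2 CPM there, against 11.45 and 12.24 CPM in all other cells. For 1110017D15Rik these levels were 248.6 and 111.6 CPM, against 0.4045 and 0.8629 CPM. For Rarres2 they were 48.97 and 10.21 CPM, against 25.37 and 28.41 CPM. Krt15 was at 22.6 and 0 CPM in choroid plexus-like cells, and Acbd7 at 0 and 1.021 CPM. The part of the ependymal markers in the results was not tested. No cluster was named ependymal, but 3 cells of cluster 3, 1 in library 1 and 2 in library 2, had UMIs of the ependymal marker Sntn; results that rest on them are given with and without them.

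Summed over all 79 genes, choroid plexus-like cells had 3372 and 1895 CPM in libraries 1 and 2 and RGL-like cells 1112 and 1137 CPM, against 573 and 592 CPM in all other cells. The 3 groups did not overlap. Classes within all other cells differed: granule neurons had 928 and 912 CPM, Cajal-Retzius cells 897 and 865 CPM and Astrocyte-like cells 793 and 775 CPM. Microglia had 434 and 457 CPM. Barcodes with fewer than 100 UMIs, which hold free RNA, had 430 and 536 CPM. With Ttr left out of the totals the choroid plexus-like level was 4078 and 2758 CPM. The order did not hold in every role group: the summed Spag genes were at 290 and 214 CPM in choroid plexus-like cells, 381 and 351 CPM in RGL-like cells and 322 and 322 CPM in all other cells. The radial spoke genes showed the wider pattern, at 659 and 337 CPM in choroid plexus-like cells, 94.2 and 103 CPM in RGL-like cells and 18.1 and 21.5 CPM in all other cells. Dynein heavy chains summed to 52.7 and 55.9 CPM in choroid plexus-like cells, 28.4 and 27.7 CPM in RGL-like cells and 4.44 and 5.91 CPM in all other cells. Most of the dynein sum in RGL-like cells came from Dnah5, at a mean of 24.4 CPM over both libraries. Most of their radial spoke sum came from Rsph9, at a mean of 87 CPM.

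**Figure D1:**
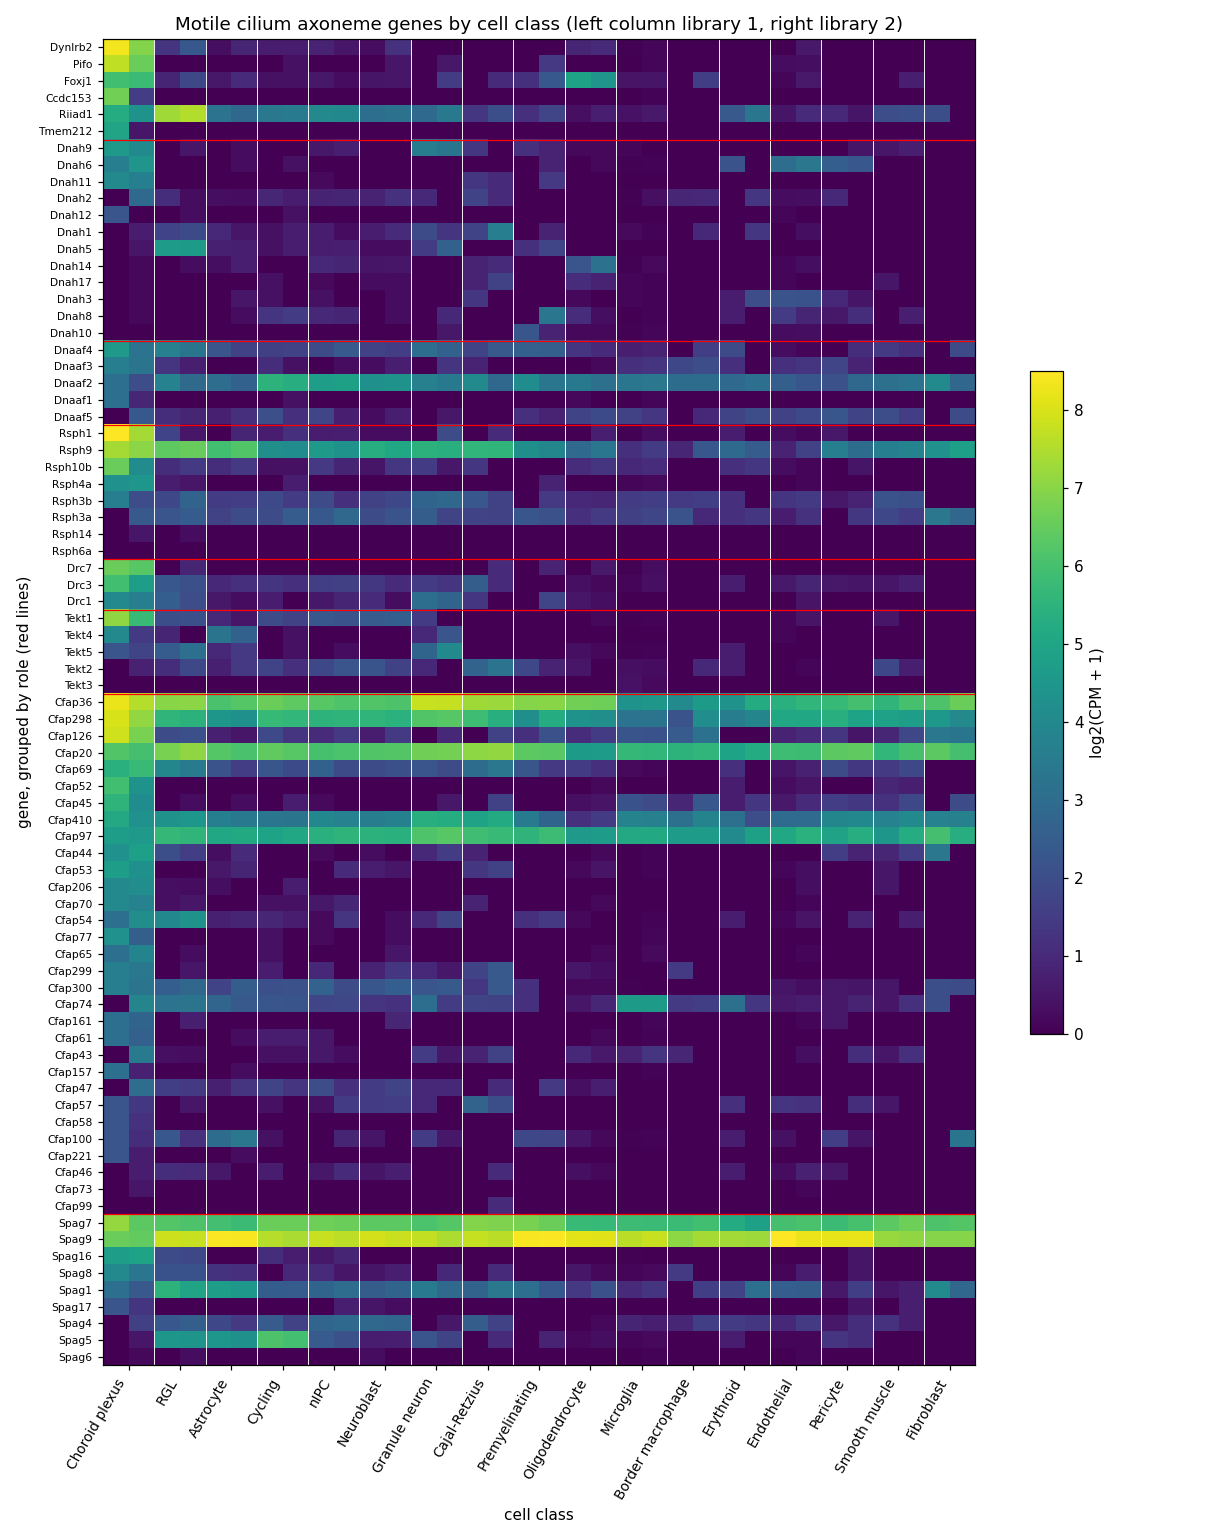
Level of each of the 79 genes (rows, grouped by role between red lines) in 17 cell classes (columns, library 1 left and library 2 right of each class), as log2(CPM + 1); the colour stops at 8.5. Most rows are brightest in the choroid plexus-like columns at the left, while Riiad1, Dnah5 and Spag1 are brightest in RGL-like cells.

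Of the 71 members with at least 10 UMIs in the named classes, 44 (62.0%) had their highest CPM in choroid plexus-like cells, against 6.24% of all 19231 genes with that many UMIs. RGL-like cells held the highest CPM of 5 members (7.04%), against 4.83% of all genes. For each class the mean of both libraries was taken. Rsph6a, a radial spoke gene, had no UMI in the named cells.

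Choroid plexus-like cells were compared with all other cells across the whole table by edgeR on sums per library and group, with library as a block. A gene was called at an adjusted p under 0.05. The p-values rest on how far class differences varied between these 2 libraries, pooled over the groups of the fit, and not between mice. The filter on low counts kept 56 of the 79 members. Because many of them passed it through the group where they are high, the counts of calls below are descriptions of those 56. Of them, 47 were higher, 3 were lower and 6 did not pass. Over all 14538 genes tested, 23.2% were called higher and 37.4% lower. The median log2 fold was 4.76 over the members tested and -0.36 over all genes tested. Scaling by total counts alone put the median of all genes at -1.15, with 13.4% of them called higher and 63.4% lower, and left 43 members higher and 4 lower. Without any filter, 51 of the 78 members with a UMI in these groups had both libraries above both values of all other cells, against 9.96% of the 23437 genes with a UMI, and 11 had both below, against 65.6%.

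Among the genes named singly, Dynlrb2, a light chain of the dynein motors of cilia, was at 324 and 121 CPM in choroid plexus-like cells, against 0.223 and 0.447 CPM in all other cells. Its log2 fold was 9.74 ± 0.427 (SE, edgeR adjusted p = 1.79e-11). Pifo, needed for disassembly of the primary cilium, was at 203 and 92.4 CPM in choroid plexus-like cells, against 0.0279 and 0.160 CPM in all other cells (log2 fold 11.1 ± 0.404 SE, edgeR adjusted p = 7.95e-12). In both genes the 2 groups were separated by orders of magnitude in each library. Foxj1 was at 60.3 and 54.7 CPM in choroid plexus-like cells, against 3.21 and 3.18 CPM in all other cells. Its log2 fold was 4.84 ± 0.244 (SE, edgeR adjusted p = 9.18e-11). In mm10 Foxj1 (ENSMUSG00000034227) lies at chr11:116330704-116335399 on the minus strand and overlaps no other counted gene. Of the Foxj1 UMIs in all other cells, 211 of 230 in library 1 and 166 of 199 in library 2 lay in oligodendrocytes.

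Rsph1, a protein of the radial spoke head, was at 373 and 162 CPM in choroid plexus-like cells, against 0.167 and 0.463 CPM in all other cells (log2 fold 10.2 ± 0.488 SE, edgeR adjusted p = 5.37e-11). All 6 radial spoke genes tested were higher, down to Rsph3a at a log2 fold of 1.41 ± 0.415 (SE), whose call was lost with DESeq2 (adjusted p = 0.238). Rsph4a, another spoke head protein, was at 18.8 and 21.3 CPM in choroid plexus-like cells, against 0.0279 and 0.112 CPM in all other cells. Rsph9 differed less, at 162 and 130 CPM in choroid plexus-like cells and 13.03 and 15.47 CPM in all other cells (log2 fold 3.96 ± 0.288 SE). Rsph1 (ENSMUSG00000024033) lies at chr17:31255019-31277383 and Rsph9 at chr17:46122035-46144216, both on the minus strand. The 3′ ends of both lie within genes on the opposite strand, and the use of strand in counting, not given in the sources used here, is unknown, so their counts are uncertain to that extent.

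All 3 Drc genes tested, subunits of the nexin-dynein regulatory complex, were higher. Drc7 was at 94.2 and 77.0 CPM in choroid plexus-like cells, against 0.0139 and 0.160 CPM in all other cells (log2 fold 10.4 ± 0.407 SE, edgeR adjusted p = 7.61e-12). Drc3 and Drc1 had log2 folds of 6.25 ± 0.311 and 5.76 ± 0.377 (SE). Of the tektins, 3 were tested and all were higher: Tekt1, with a log2 fold of 7.05 ± 0.266 (SE, edgeR adjusted p = 7.1e-12), then Tekt4 and Tekt5. Tekt4 rested on 4 and 12 UMIs in choroid plexus-like cells of libraries 1 and 2, and Tekt5 on 1 and 16. Tekt1 was at 136 and 52.4 CPM in choroid plexus-like cells, against 0.935 and 0.847 CPM in all other cells.

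Of the 12 dynein heavy chains, the motor subunits themselves, 5 were tested and 3 were higher. Dnah11 was at 15.1 and 11.8 CPM in choroid plexus-like cells, against 0.0418 and 0.0479 CPM in all other cells (log2 fold 8.67 ± 0.489 SE, edgeR adjusted p = 7.41e-10). Dnah9, like Dnah11 a chain of the outer arm, had a log2 fold of 6.08 ± 0.384 (SE), and Dnah6, of the inner arm, of 4.50 ± 0.333 (SE). The 3′ ends of Dnah6 and Dnah11 lie in other annotated genes. Dnah5, likewise of the outer arm, had 3 UMIs in all choroid plexus-like cells, and its CPM ratio to all other cells was 1.62 with a 95% counting interval of 0.318 to 5.13. Among assembly factors, Dnaaf3, Dnaaf4 and Dnaaf5 were higher, with log2 folds of 4.25 ± 0.366, 3.50 ± 0.355 and 1.99 ± 0.443 (SE), and Dnaaf2 was lower at -0.93 ± 0.388 (SE, edgeR adjusted p = 0.0481). The calls of Dnaaf5 and Dnaaf2 were lost with DESeq2, at adjusted p = 0.214 and 0.247.

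Of 23 Cfap genes tested, 21 were higher. The other 2, Cfap100 and Cfap97, did not pass, with log2 folds of 1.51 ± 0.708 and 0.14 ± 0.228 (SE). Cfap126, an axonemal microtubule protein, was at 234 and 109 CPM in choroid plexus-like cells, against 1.98 and 2.12 CPM in all other cells (log2 fold 6.81 ± 0.262 SE, edgeR adjusted p = 7.1e-12). Cfap69, Cfap44 and Cfap206 followed by adjusted p, at log2 folds of 5.83 ± 0.256, 7.51 ± 0.377 and 8.93 ± 0.462 (SE). Cfap20, present in every class, differed little, at 71.6 and 62.3 CPM in choroid plexus-like cells and 57.3 and 58.3 CPM in all other cells (log2 fold 0.83 ± 0.286 SE, edgeR adjusted p = 0.0187). Cfap74 was called higher, but it was at 0 and 13.6 CPM in choroid plexus-like cells, against 9.58 and 8.13 CPM in all other cells, and in library 1 a floor of 3 counts stands at 11.3 CPM. With 0.5 counts added to each sum, 49 of the 50 called members had the same direction in both libraries, and Cfap74 did not. The added counts weigh more in the small choroid plexus-like sum of library 1 and raise its ratios. Rsph6a, with no UMI, stood at a log2 ratio of 8.46 there. The shared direction is therefore no check for members near the floor in library 1. The call of Cfap74 was lost with DESeq2 (adjusted p = 0.497) and with total-count scaling (adjusted p = 0.0634), and that of Cfap20 with total-count scaling (adjusted p = 0.692). Cfap47, Dnaaf5 and Rsph3a also had no UMI in choroid plexus-like cells of library 1, so UMIs of these genes in the class came from library 2 alone. All other cells of library 1 held 43, 144 and 152 UMIs of them. Their log2 ratios of 2.01, 0.283 and 0.205 in library 1 were above 0 only through the added counts. Among Spag genes, Spag16, of the central apparatus, was higher by a log2 fold of 8.67 ± 0.379 (SE, edgeR adjusted p = 1.79e-11). Spag8 and Spag7 were higher as well. Spag5 and Spag9 were lower: Spag5 had 3 UMIs in choroid plexus-like cells, a CPM ratio of 0.0815 with a 95% counting interval of 0.0168 to 0.239, and its direction turned to 0.32 on the log2 scale when the other classes were weighted equally.

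**Figure D2:**
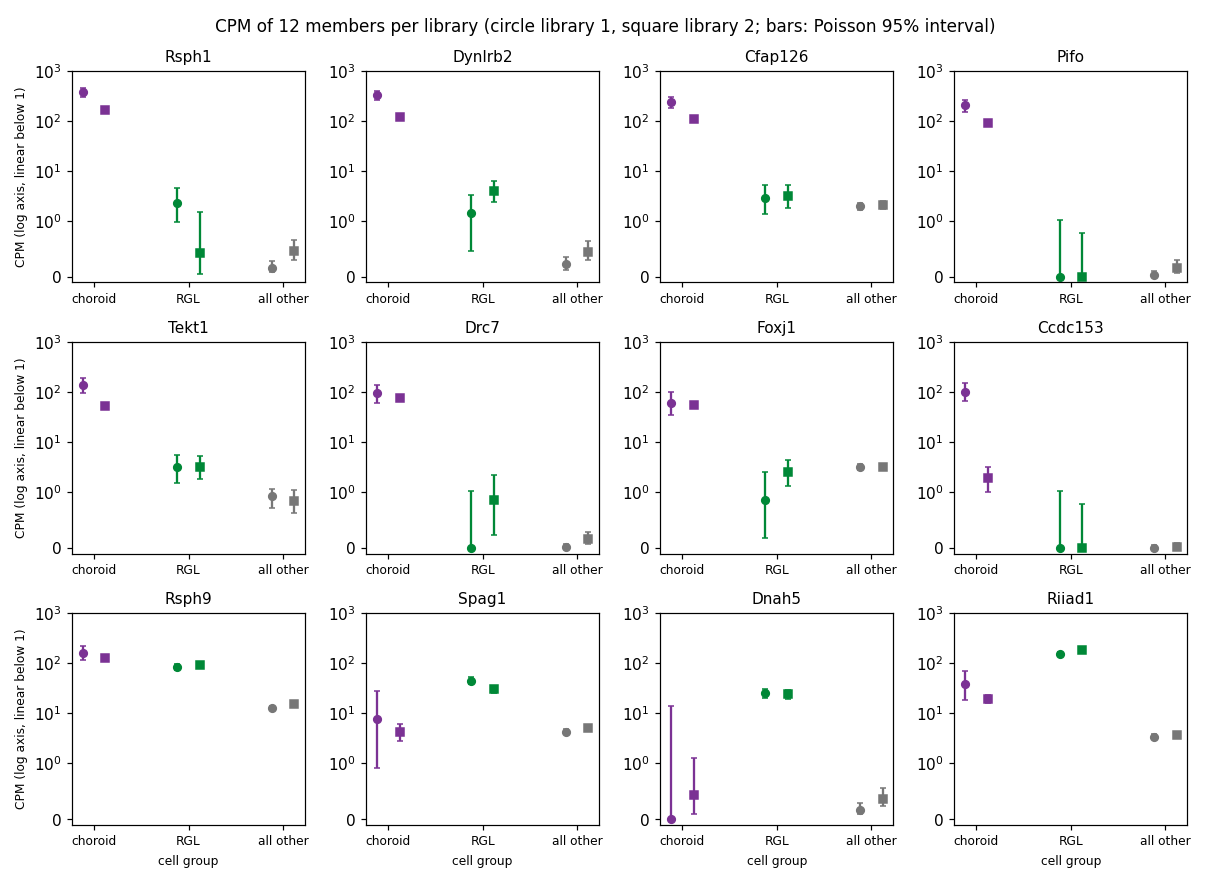
CPM of 12 members in choroid plexus-like, RGL-like and all other cells, with circles for library 1, squares for library 2 and bars for the exact Poisson 95% interval; the axis is logarithmic above 1 CPM and linear below. Rsph1, Dynlrb2, Cfap126, Pifo, Tekt1, Drc7 and Foxj1 are highest in choroid plexus-like cells in both libraries, and Spag1, Dnah5 and Riiad1 in RGL-like cells.

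The other 23 members were not tested, and 16 of these had at most 50 UMIs in all named cells. Some were nonetheless concentrated in choroid plexus-like cells. Cfap43 had 71 of its 152 UMIs there, Dnah2 had 45 of 96, Cfap58 all 10 and Spag17 11 of 19. Cfap58 was at least 62.9-fold higher in choroid plexus-like than in all other cells, set against a floor of 3 counts over the group. Others were not: Dnah14 had 1 of 120 UMIs in choroid plexus-like cells, Dnah3 1 of 81, Dnah8 1 of 79 and Tekt2 5 of 150.

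Ccdc153 and Tmem212, genes of multiciliated cells, rested on the 3 cells with Sntn. Ccdc153 was at 102 and 1.90 CPM in choroid plexus-like cells of libraries 1 and 2 and had a single UMI in all other cells. All 40 of its UMIs in the class, and all 11 of Tmem212, came from those 3 cells, of 368. The cell in library 1 alone held 27 UMIs of Ccdc153 and 24 members in all, with no Ttr. Of Riiad1 in the choroid plexus-like class, 15.6% of UMIs came from these cells, of Dynlrb2 3.83%, of Rsph1 1.98% and of Pifo 0.873%. With the 3 cells left out, 44 of 52 members tested were higher and 3 were lower than in all other cells, and 37 were higher and 5 lower than in RGL-like cells.

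Within the choroid plexus-like class, the deep cluster 29, with a median of 43886 UMIs per cell in library 2, and the shallower cluster 3, with 6032.5, differed in the balance of members. The following are values of 1 library with counting intervals only. Dynlrb2 was at 85.1 CPM in cluster 29 and 229 CPM in cluster 3, a ratio of 0.371 (95% counting interval 0.323 to 0.426). Rsph1, Pifo, Cfap126 and Cfap298 had ratios of 0.453, 0.407, 0.402 and 0.526. Foxj1 went the other way, at 61.3 CPM in cluster 29 and 34.8 CPM in cluster 3, a ratio of 1.76 (1.33 to 2.37). Dnah6, Dnah9, Cfap54, Cfap74 and Cfap43 had ratios of 4.82, 2.33, 3.23, 4.77 and 3.01. Of 50 members with at least 20 UMIs in the pair of clusters, the interval lay above 1 for 10 and below 1 for 15. Ttr took 33.2% of the UMIs of cluster 29 and 25.5% of those of cluster 3 in library 2; the part of depth and of Ttr in these ratios was not tested. With cluster 3 as the only choroid plexus-like cluster, 43 members were higher and 2 were lower than in all other cells.

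**Figure D3:**
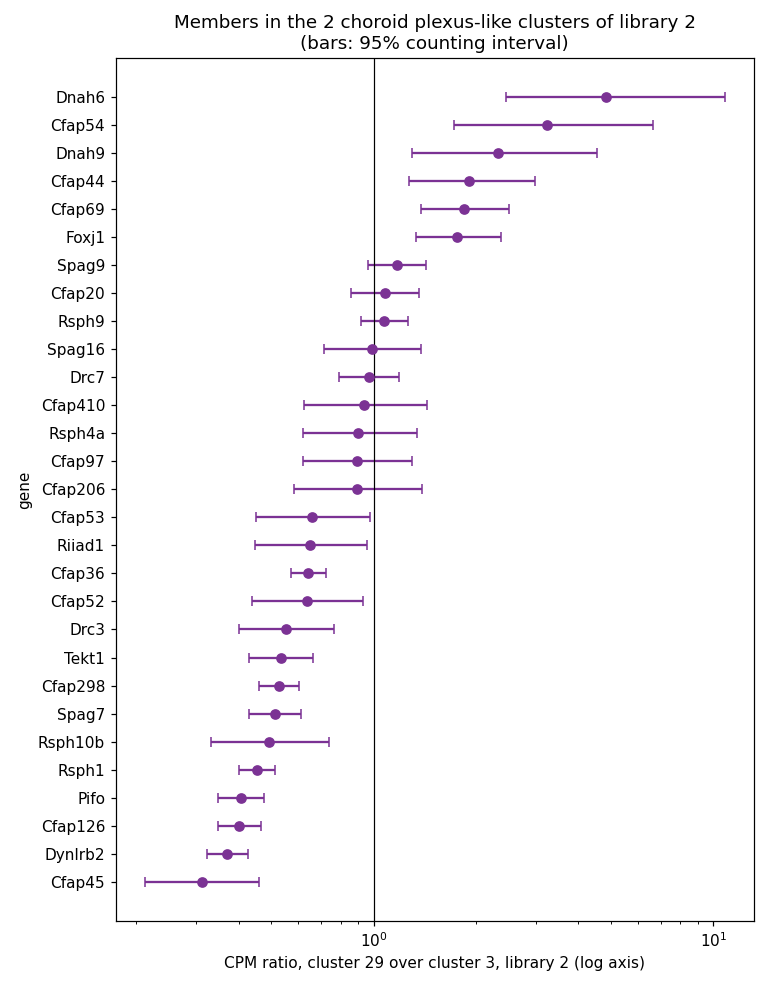
CPM ratio of cluster 29 over cluster 3 in library 2 (log axis) for members with at least 100 UMIs in both together; bars are 95% counting intervals and the vertical line marks equal levels. Dnah6 and Cfap54 lie right of the line, and Dynlrb2, Cfap126, Pifo and Rsph1 lie left of it.

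Per cell, choroid plexus-like cells had UMIs of a median of 11 and 13 members in libraries 1 and 2 and RGL-like cells of 5 and 5, against 3 and 3 in all other cells. Depth differs between these classes, so each cell was thinned to 1000 UMIs, which left out no cell. The mean number of members per cell was then 3.52 and 2.06 in choroid plexus-like cells; in RGL-like cells it was 1.02 and 1.06, against 0.520 and 0.544 in all other cells. The 5% of choroid plexus-like cells with most member UMIs held 20.11% and 20.03% of them, and were 2 cells in library 1 and 17 in library 2. One of the cells with Sntn held 94 of the 895 member UMIs of the class in library 1. In library 2 the cells of cluster 29 held 8835 of 12986, and the summed level was 1713 CPM in cluster 29 and 2448 CPM in cluster 3. After thinning, 37.9% and 19.2% of choroid plexus-like cells had a UMI of Rsph1 (exact Clopper-Pearson 95% intervals 20.7 to 57.7% and 15.1 to 23.8%), against 0.0437% and 0.0609% of all other cells. Before thinning these shares were 65.5% and 76.7% in choroid plexus-like cells, at median depths of 4729 and 9923 UMIs. Endothelial cells, which should lack motile cilia, had a UMI of Rsph1 in 0.239% and 0.121% of cells, at median depths of 8172 and 7172 UMIs. Intervals cover counting error only.

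RGL-like cells were then compared with all other cells in the same fit, which asks which members the stem cells carry above the other classes. The all other cells are the same as in the comparison above. Of 56 members tested, 29 were higher, 2 were lower and 25 did not pass, against 25.5% of all genes called higher and 31.9% lower. The median log2 fold was 1.23 over the members tested and -0.07 over all genes tested. Without a filter, 36 of the 76 members with a UMI lay above all other cells in both libraries and 21 below, against 27.3% and 47.9% of 23374 genes. The members that were highest in RGL-like cells belonged to several roles.

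Riiad1, a protein with a regulatory subunit dimerisation domain of protein kinase A, was at 155 and 181 CPM in RGL-like cells, against 3.42 and 3.71 CPM in all other cells. Its log2 fold was 5.65 ± 0.283 (SE, edgeR adjusted p = 1.66e-10). After thinning, 12.01% and 16.1% of RGL-like cells had a UMI of it (exact Clopper-Pearson 95% intervals 9.18 to 15.3% and 13.4 to 19.1%), against 0.247% and 0.319% of all other cells. In mm10 Riiad1 (ENSMUSG00000028139) lies at chr3:94464983-94480341 on the minus strand and overlaps Celf3 on the opposite strand, though not at its 3′ end.

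Dnah5 was at 25.03 and 23.86 CPM in RGL-like cells, against 0.167 and 0.368 CPM in all other cells (log2 fold 6.61 ± 0.313 SE, edgeR adjusted p = 9.13e-11). The gene (ENSMUSG00000022262) lies at chr15:28203752-28472052 on the plus strand and overlaps no other counted gene. Of the 12 heavy chains it was the 1 with more than 3 CPM in RGL-like cells in either library. Dnah1, of the inner arm, was higher too, at 2.28 and 2.80 CPM in RGL-like cells, against 0.307 and 0.479 CPM in all other cells (log2 fold 2.76 ± 0.436 SE). Dnah6 had no UMI in RGL-like cells and was at least 3.67-fold lower than in all other cells. With the other classes weighted equally it was no longer called (adjusted p = 1). Endothelial cells held 71 of its 88 UMIs in all other cells of library 1 and 78 of 93 in library 2.

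Cfap54, of the central apparatus, was at 14.5 and 19.1 CPM in RGL-like cells, against 0.167 and 0.447 CPM in all other cells (log2 fold 5.88 ± 0.322 SE, edgeR adjusted p = 2.41e-10). Cfap69 was at 13.9 and 10.3 CPM in RGL-like cells, against 1.74 and 1.44 CPM in all other cells (edgeR adjusted p = 1.08e-07). Cfap300 and Cfap44 had log2 folds of 2.12 ± 0.328 and 3.50 ± 0.573 (SE). Spag1, a cytoplasmic factor of dynein assembly, was at 44.4 and 30.1 CPM in RGL-like cells, against 4.31 and 5.08 CPM in all other cells (log2 fold 3.06 ± 0.206 SE, edgeR adjusted p = 1.57e-09). Dnaaf4 was the only Dnaaf gene called, at a log2 fold of 2.84 ± 0.295 (SE). Rsph9 was at 83.9 and 90.1 CPM in RGL-like cells, against 13.03 and 15.47 CPM in all other cells (log2 fold 2.71 ± 0.263 SE). Tekt5, Tekt1, Drc1 and Drc3 were higher, at log2 folds of 3.85 ± 0.382, 1.95 ± 0.447, 3.41 ± 0.435 and 2.43 ± 0.426 (SE).

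Foxj1 did not pass in RGL-like cells, at 0.853 and 2.58 CPM, against 3.21 and 3.18 CPM in all other cells. Pifo, Ccdc153 and Tmem212 had no UMI in the 1117 RGL-like cells, which allows a share of cells with a UMI of up to 0.655% in library 1 and 0.455% in library 2. Dynlrb2 was called higher, at 1.42 and 4.08 CPM in RGL-like cells, against 0.223 and 0.447 CPM in all other cells (edgeR adjusted p = 0.00055). Free RNA held it at 1.39 and 7.78 CPM, and with free RNA subtracted in proportion to its estimated share of 0.307% and 1.85% of the UMIs of a cell, the RGL-like level was 1.42 and 4.01 CPM. Rsph1, at 2.28 and 0.430 CPM in RGL-like cells, did not pass, and free RNA held it at 2.98 and 10.8 CPM. Cfap45 had 1 UMI in RGL-like cells, a CPM ratio of 0.0875 (95% counting interval 0.0022 to 0.493), and was called lower. That call was lost with the other classes weighted equally (adjusted p = 1) and with DESeq2 (adjusted p = 0.0694), and microglia held 86 of its 103 UMIs in all other cells of library 1 and 53 of 85 in library 2.

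Set against each other directly, choroid plexus-like cells were higher than RGL-like cells in 40 of 56 members tested and lower in 5, against 23.3% and 25.6% of all genes. By total counts alone 36 were higher and 11 lower, with 14.5% and 47.9% of all genes, and the median log2 fold of all genes was then -0.78, against -0.10 in the fit as described. The median over the members tested was 3.22. Without a filter, 43 of the 75 members with a UMI lay above RGL-like cells in both libraries and 12 below, against 12.6% and 50.9% of 19107 genes. The 5 that were called lower were Dnah5, Riiad1, Spag1, Spag5 and Spag9. Dnah5 had 3 UMIs in choroid plexus-like cells against 199 in RGL-like cells, a CPM ratio of 0.0173 (95% counting interval 0.00354 to 0.0513). Riiad1 was at 37.7 and 19.1 CPM in choroid plexus-like cells, against 155 and 181 CPM in RGL-like cells (log2 fold -2.32 ± 0.306 SE, edgeR adjusted p = 8.45e-06). Spag1 was at 7.53 and 4.23 CPM in choroid plexus-like cells, against 44.4 and 30.1 CPM in RGL-like cells (log2 fold -2.30 ± 0.353 SE, edgeR adjusted p = 4.26e-05). Dnah9, Dnah11 and Dnah6 ran the other way from Dnah5: Dnah6 was at least 55.1-fold higher and Dnah11 at least 32.5-fold higher in choroid plexus-like cells, set against a floor of 3 counts over the RGL-like group, in which neither had a UMI.

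Pifo, with 687 UMIs in choroid plexus-like and none in RGL-like cells, was at least 263-fold higher. Foxj1 had a log2 fold of 5.57 ± 0.34 (SE, edgeR adjusted p = 1.96e-09), Dynlrb2 of 6.51 ± 0.433, Rsph1 of 8.12 ± 0.53, Drc7 of 7.87 ± 0.492 and Tekt1 of 5.10 ± 0.311 (SE). Cfap54 did not pass, at 7.53 and 17.4 CPM in choroid plexus-like cells and 14.5 and 19.1 CPM in RGL-like cells. With 0.5 counts added to each sum, 44 of the 45 called members here had the same direction in both libraries, with Cfap74 as the exception. Here too the added counts raise the ratios of the small choroid plexus-like sum of library 1. Rsph6a, with no UMI, stood at 4.04 there.

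RGL-like cells were last compared with Astrocyte-like cells, the class nearest to them, in a fit of 17 classes. The p-values of this fit rest on the spread between libraries pooled over all 17 classes, not on these classes alone. The 8 astrocyte markers summed to 10590 and 9832 CPM in RGL-like cells, against 21030 and 21000 CPM in Astrocyte-like cells. Single markers differed less or more than the sum. Aldoc was at 2901 and 2675 CPM in RGL-like cells, against 3317 and 2829 CPM in Astrocyte-like cells. For Aqp4 these levels were 155 and 184.5 CPM, against 1532 and 2162 CPM, and for S100b 10.5 and 11.6 CPM, against 367 and 387 CPM. The part of the astrocyte markers in the results was not tested. Of 56 members tested, 16 were higher, 3 were lower and 37 did not pass. Over all 15769 genes tested, 14.6% were called higher and 17.4% lower, and by total counts alone 30.1% and 10.6%, with 21 members higher and 3 lower and the median of all genes at 0.29. Without a filter, 34 of the 64 members with a UMI lay above Astrocyte-like cells in both libraries and 5 below, against 43.3% and 18.3% of 19126 genes. The median log2 fold of the members tested was 0.67, or 0.32 with the 16 members that had no UMI in one of the classes set at their bounds. Riiad1 was at 155 and 181 CPM in RGL-like cells, against 8.36 and 6.10 CPM in Astrocyte-like cells (log2 fold 4.20 ± 0.165 SE, edgeR adjusted p = 1.59e-18). Dnah5 was at 25.03 and 23.86 CPM in RGL-like cells, against 0.697 and 0.631 CPM in Astrocyte-like cells (log2 fold 4.81 ± 0.421 SE, edgeR adjusted p = 4.2e-09). Cfap54 was at 14.5 and 19.1 CPM in RGL-like cells, against 0.697 and 0.841 CPM in Astrocyte-like cells (log2 fold 4.08 ± 0.475 SE, edgeR adjusted p = 6.35e-08). In all 3 genes both libraries of RGL-like cells lay far above both of Astrocyte-like cells.

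Spag16 had 22 UMIs in RGL-like and none in Astrocyte-like cells and was at least 8.14-fold higher. Cfap69, Dnaaf4, Tekt5 and Tekt1 had log2 folds of 1.83 ± 0.356, 1.49 ± 0.384, 1.84 ± 0.497 and 1.90 ± 0.645 (SE). Tekt1 missed the threshold with DESeq2 (adjusted p = 0.0527), and Dnaaf4 and Tekt1 at a mitochondrial limit of 10% (adjusted p = 0.0986 and 0.337). Tekt4 and Cfap100 were lower. Tekt4 was at 0.853 and 0 CPM in RGL-like cells, against 8.59 and 5.26 CPM in Astrocyte-like cells, a CPM ratio of 0.0537 (95% counting interval 0.0108 to 0.164), and its call was lost with DESeq2 (adjusted p = 0.788). Cfap100 was at 3.98 and 1.29 CPM in RGL-like cells, against 6.97 and 9.26 CPM in Astrocyte-like cells (log2 fold -2.06 ± 0.513 SE, edgeR adjusted p = 0.00226); its 3′ end lies within another gene, and its call was lost with DESeq2 as well (adjusted p = 0.134). Spag9 was the third that was lower, at a log2 fold of -0.95 ± 0.151 (SE), and it passed with DESeq2 too. Rsph9 and Spag1 did not pass in this comparison: Rsph9 was at 83.9 and 90.1 CPM in RGL-like cells and 59.9 and 71.9 CPM in Astrocyte-like cells. Spag5 did not pass either, at 21.6 and 20.2 CPM in RGL-like cells and 21.1 and 18.1 CPM in Astrocyte-like cells. With a mitochondrial limit of 10% per cell, 9 members were higher.

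**Figure D4:**
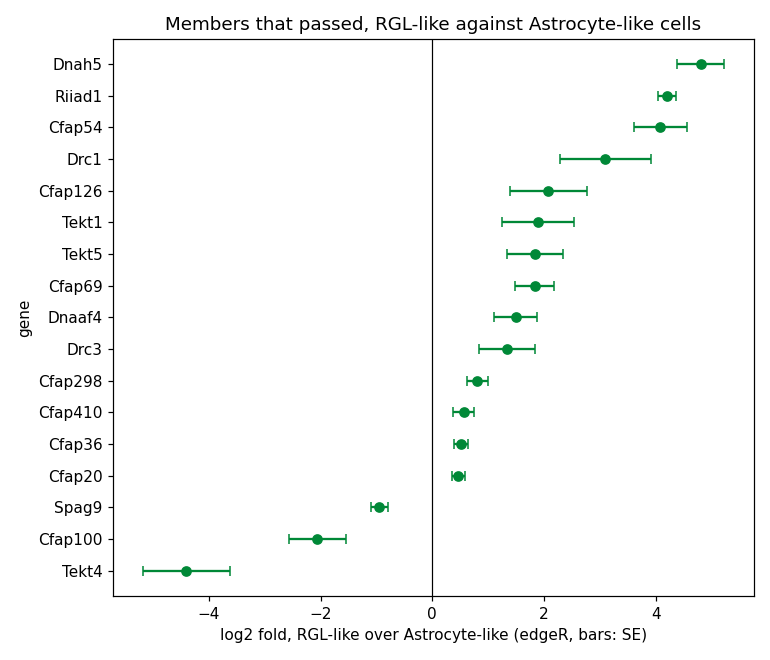
Log2 fold of RGL-like over Astrocyte-like cells (edgeR estimate, bars are SE) for the called members that had a UMI in both classes. Dnah5, Riiad1 and Cfap54 stand at the right above 4, and Tekt4, Cfap100 and Spag9 lie left of 0.

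Outside these classes, single members had marked peaks. Foxj1 was at 29.5 and 20.6 CPM in oligodendrocytes, with exact Poisson 95% intervals of 25.7 to 33.8 and 17.6 to 24.0, against 2.38 and 3.38 CPM in free RNA. It had a UMI in 39.2% and 24.8% of those cells, against 0.119% and 0.363% of endothelial cells; after thinning to 1000 UMIs these shares were 3.78% and 1.79% in oligodendrocytes, against 0% and 0% of endothelial cells, which allows shares of up to 0.358% and 0.363%. Median depths were 23807 and 21115 UMIs in oligodendrocytes, against 8172 and 7172 UMIs in endothelial cells. Members that were high with Foxj1 in choroid plexus-like cells varied there. Pifo had no UMI in the oligodendrocytes of either library, and Rsph1 had a UMI in 0% and 0.767% of oligodendrocytes, where the count of 0 in library 1 allows a share of up to 1.03%. Cfap36 was at 103 and 98.5 CPM in oligodendrocytes, against 54.5 and 63.1 CPM in all other cells, oligodendrocytes included. Oligodendrocytes were not its peak: by the mean of both libraries it was at 246 CPM in choroid plexus-like cells and 216 CPM in granule neurons. Cfap74, of the central apparatus, was highest in microglia, at 23.6 CPM in both libraries, against 8.93 and 8.12 CPM in free RNA. Dnah14 was highest in oligodendrocytes, at 3.78 and 7.96 CPM, and Dnah3 in endothelial cells, at 3.47 and 3.39 CPM. Spag5 was at 69.6 and 61.3 CPM in cycling cells. Dnaaf2 was also highest there, at 44.4 and 38.3 CPM. Tekt5 was highest in granule neurons, at 5.61 and 15.5 CPM from 6 and 33 UMIs. Tekt2 was highest in Cajal-Retzius cells, at 5.46 and 8.38 CPM from 7 and 8 UMIs. Ranks that rest on so few UMIs are uncertain. Spag9, Spag7, Cfap97, Cfap20, Cfap36, Cfap298, Cfap410 and Dnaaf2, 8 of the 79 members, exceeded 1 CPM in all 17 classes in each library.

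Other ciliary genes were taken from 4 lists outside the symbol pattern. Of 26 tested genes that encode further axonemal proteins, 24 were higher in choroid plexus-like than in all other cells and 2 did not pass. Their median log2 fold was 4.51, and of all genes tested 23.2% were called higher and 37.4% lower. Ccdc113, of the ciliary base and axoneme, was at 128 and 71.0 CPM in choroid plexus-like cells, against 0.0418 and 0.224 CPM in all other cells (log2 fold 9.96 ± 0.384 SE, edgeR adjusted p = 7.1e-12). Nme5 and Mlf1 had log2 folds of 6.42 ± 0.263 and 6.34 ± 0.295 (SE). In RGL-like against all other cells 17 of these genes were higher and 3 lower, against 25.5% and 31.9% of all genes. Against Astrocyte-like cells 5 of 25 tested were higher and 20 did not pass, where 14.6% of all genes were called higher. Among them Enkur was higher in RGL-like than in Astrocyte-like cells, at 5.97 and 6.45 CPM in RGL-like cells, against 0 and 0.421 CPM in Astrocyte-like cells (log2 fold 4.32 ± 0.808 SE).

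Of 7 tested regulators of multiciliogenesis, 3 were higher and 1 was lower in choroid plexus-like than in all other cells. Of all genes tested, 23.2% were called higher and 37.4% lower. Gmnc, which starts the multiciliated program, was at 11.3 and 37.9 CPM in choroid plexus-like cells, against 0.153 and 0.272 CPM in all other cells (log2 fold 7.67 ± 0.378 SE, edgeR adjusted p = 7.29e-11). Rfx2 was higher both in choroid plexus-like and in RGL-like than in all other cells, at log2 folds of 3.24 ± 0.336 and 2.87 ± 0.281 (SE). Trp73 was higher in choroid plexus-like cells (1.79 ± 0.327 SE) and lower in RGL-like cells (-3.68 ± 0.607 SE). Mcidas had no UMI in choroid plexus-like or RGL-like cells.

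The machinery of intraflagellar transport and the BBSome, which serves motile and primary cilia alike, was tested with 30 genes. In choroid plexus-like against all other cells 22 were higher and 8 did not pass, against 23.2% of all genes called higher and 37.4% lower. The median log2 fold was 1.48. In RGL-like against all other cells 18 were higher and 12 did not pass, against 25.5% of all genes called higher and 31.9% lower. The median there was 0.99. In RGL-like against Astrocyte-like cells 13 were higher and 1 was lower, against 14.6% and 17.4% of all genes. Ift57 and Bbs5 had log2 folds of 3.04 ± 0.277 and 2.87 ± 0.269 (SE) in choroid plexus-like cells, and Ttc8 and Ift122 of 2.54 ± 0.175 and 2.26 ± 0.18 (SE) in RGL-like cells. Of 24 tested genes of primary cilium signalling, 11 were higher and 4 lower in choroid plexus-like than in all other cells. Of all genes, 23.2% were called higher and 37.4% lower there. In RGL-like against all other cells 17 were higher and 7 did not pass, against 25.5% of all genes called higher and 31.9% lower. In choroid plexus-like against RGL-like cells 4 of 24 tested were higher and 11 were lower, against 23.3% and 25.6% of all genes. The median log2 fold was -0.55. In RGL-like against Astrocyte-like cells 3 of 25 tested were higher and 2 were lower, against 14.6% and 17.4% of all genes. Gli3, a transcription factor of Hedgehog signalling, was at 0 and 1.31 CPM in choroid plexus-like cells, against 64.3 and 79.3 CPM in RGL-like cells (log2 fold -5.23 ± 0.376 SE, edgeR adjusted p = 8.48e-09). Rpgrip1l, of the transition zone at the base of the cilium, was higher in choroid plexus-like than in RGL-like cells by 2.43 ± 0.233 (SE) on the log2 scale.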

How the data were processed

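Single-cell suspensions of mouse dentate gyrus were run with the Chromium Next GEM Single Cell 3′ kit v3.1, per the labels' protocols. The deposited matrix holds raw counts of unique molecular identifiers (UMIs) per gene and barcode, not filtered for cells. Cell Ranger 4.0.0, Scanpy 1.7.0 and mm10 are named in the submitters' processing notes; strand use in counting: not given in the sources used here. The 2 barcode suffixes were read as libraries 1 and 2, and the labels tie neither to a genotype or to a mouse.

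A barcode was kept if it had 1000 UMIs or more, 500 genes or more and no more than 20% mitochondrial UMIs (Python 3.11.15, scanpy 1.11.5). Scrublet marked 226 and 252 doublets (2.74% and 3.01%), which were removed. Leiden clustering at resolution 1 gave 30 clusters, of which 4 stayed unnamed and the others were named as 17 classes from marker lists; the scores needed for a name were set after the data were seen, and all class names were rebuilt here. For each class the counts of a library's cells were added up and CPM taken from the sums. edgeR 4.0.16 (quasi-likelihood, filterByExpr, TMM scaling, library as a block, Benjamini-Hochberg adjustment over all genes tested) gave the tests: 1 fit of choroid plexus-like, RGL-like and all other cells, and 1 fit of 17 classes for RGL-like against Astrocyte-like. The biological coefficients of variation were 0.145 and 0.122. The labels do not say that the libraries came from separate animals. The p-values therefore rest on the spread of class differences between these libraries, pooled over the classes of a fit and moderated across genes. The fits had 2 and 16 residual degrees of freedom. That spread may be technical or hold differences between mice or genotypes, which cannot be told apart. On simulated counts the test recovered 95% of 2-fold and 100% of 4-fold changed genes for choroid plexus-like against all other cells (14154 genes). That simulation tested 100 changed genes at each fold, while in the data 23.2% of genes were called higher and 37.4% lower. Recovery may differ where so many genes change.

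The deposited totals were 102897659 and 107266420 UMIs; a floor of 3 counts corresponds to 11.3 and 0.438 CPM in choroid plexus-like cells and to 0.853 and 0.645 CPM in RGL-like cells. Intervals are exact Poisson or binomial 95% intervals and cover counting error only. Gene positions come from the mm10 annotation. The members, gene lists and markers were chosen with earlier results of these data known. Genes were named by rank of CPM in the choroid plexus-like, RGL-like and other cells and by adjusted p within each role group, together with the 6 genes that the pattern spells out; genes outside that rule (those not tested, those highest in another class, and those that set the cells or clusters apart) were chosen after their values were seen. Alternatives in scaling, tool, filters, doublets, resolution, class weights and library were tried.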

Additional observations from a re-analysis of the deposited data

Results flagged for a closer look

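A pair of members lay above their level in all other named cells in clusters that were left unnamed and entered no comparison. Riiad1 was at 426 CPM in library 1 (93 UMIs) and 231 CPM in library 2 (72 UMIs) in cluster 7, which is led by Fabp7 and Hopx and has a median of 1792 UMIs per cell, against 3.42 and 3.71 CPM in all other named cells. The exact Poisson 95% intervals ran between 344 and 522 in library 1 and between 180.5 and 290.5 in library 2, and RGL-like cells were at 155 and 181 CPM. Spag5 was at 20.7 CPM in library 1 (16 UMIs, 11.8 to 33.6) and 34.5 CPM in library 2 (16 UMIs, 19.7 to 56.0) in cluster 11, which is led by Mt2, Mt1 and Aldoc, against 5.16 and 5.18 CPM in all other named cells. RGL-like cells held it at 21.6 and 20.2 CPM and Astrocyte-like cells at 21.1 and 18.1 CPM. Both are values of shallow cells, and the part of depth was not tested.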

How the results depend on the processing

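The classes compared come from the same libraries, and the fits pair them with the library as a block; without that block, 1 of 145 calls of members over the 4 comparisons was lost. Members are given as higher and lower, and medians are log2 folds over the members tested. Values in 1 library alone are log2 ratios of sums with 0.5 counts added, and not edgeR estimates. The added counts raise ratios where the first sum is smaller. Pifo, with no UMI in RGL-like cells, stood at 2.1 against all other cells in library 1. Values in 1 library alone are therefore no like-for-like check of the fit. For choroid plexus-like against all other cells (47 and 3, median 4.76), the median was 4.02 with total-count scaling, 5.95 with the other classes weighted equally and 5.29 with cluster 3 alone, and 4.79 to 5.25 in 1 library alone. For RGL-like against all other cells (29 and 2, median 1.23), 1 member was lower with DESeq2, 5 without the filter on low counts and 0 with equal weights; DESeq2 called 23 higher. The median there was 0.78 without the filter, 1.97 with equal weights and 1.44 to 1.96 in 1 library alone. For choroid plexus-like against RGL-like (40 and 5, median 3.22), total-count scaling put 11 members lower with a median of 2.56. That median was 3.76 without the filter, 2.78 at a minimum of 2000 UMIs, 3.78 with doublets kept, 2.81 without the Sntn cells, 3.59 without Ttr and 2.87 to 3.36 in 1 library alone. For RGL-like against Astrocyte-like (16 and 3, median 0.67), the median was 0.97 with total-count scaling and 0.30 to 0.69 in 1 library alone; 1 member was lower with DESeq2 and 9 were higher at a mitochondrial limit of 10%. Of the called members, 3 turned round. Spag5 in choroid plexus-like against all other cells was at 0.32 with equal weights (adjusted p = 0.678). Cfap74 was at -1.97 to 1.59 in 1 library alone and -0.58 with cluster 3 alone in choroid plexus-like against all other cells, and at -1.90 to 1.38 and -0.64 against RGL-like cells. Cfap410 in choroid plexus-like against RGL-like cells was at -0.0143 with total-count scaling (adjusted p = 0.973). DESeq2 lost 22 of 145 calls. The causes were not tested. The alternatives on cluster 3, the Sntn cells, Ttr and cluster 7 as RGL-like were added after the data were seen; with cluster 7 counted as RGL-like, 30 members were higher and 2 lower than in all other cells. In library 1 a choroid plexus-like level under 11.3 CPM rests on fewer than 3 UMIs, which limits single members there.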
